A study of Mus musculus with 12 samples.

Results

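The genes described here encode the machinery that shortens, decaps and degrades cytoplasmic mRNA and the proteins that bring it to a transcript, and they were followed in a YTHDF2 RIP-seq experiment on myeloid cells from MC38 tumors. The set held 45 genes of the 54446 in the count files. They were named by function (the CCR4-NOT complex, other deadenylases, decapping and 5′-3′ decay, nonsense-mediated decay, RNA-binding proteins that direct decay, and the microRNA-induced silencing complex, miRISC) and matched by gene symbol, with no threshold on any value. No measured value chose the members, which were chosen by name, and all 45 were found and passed the filter on low counts. The list was drawn up by name with earlier results of these data known, so the counts of members that differed describe these genes and are not independent evidence about the pathway.

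The cells were CD11b+ myeloid cells sorted from subcutaneous MC38 tumors, which are grown from a mouse colon adenocarcinoma line, in WT mice. Per the study's methods, these WT mice carried Ythdf2 fl/fl, a floxed allele without Cre, in both arms. In the IR group the tumors had received a single dose of 20 Gy and cells were collected 3 days later, and the Ctrl group was not irradiated. Each group had 3 pools of mice, and each pool gave an Input library and a YTHDF2 IP library, 12 in all. The methods call the 3 pools technical replicates, so the errors and p-values measure the spread between these pools. There was no IP from cells without YTHDF2 and no control antibody among the libraries used here, so a ratio of IP to Input is enrichment relative to Input and not occupancy. Per the methods, male and female mice aged 8 to 10 weeks were used. The labels and the methods name different suppliers of the YTHDF2 antibody and different RNA preparations.

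YTHDF2 is a cytoplasmic reader of N6-methyladenosine (m6A), the most abundant internal modification of mRNA, and it brings methylated transcripts to decay. It recruits the CCR4-NOT deadenylase through the scaffold CNOT1, after which the shortened tail permits decapping by DCP2 and digestion by the exonuclease XRN1. MicroRNAs reach the same enzymes by another route, in which Argonaute proteins hold the microRNA and TNRC6 (GW182) proteins bind CCR4-NOT and PAN2-PAN3. In myeloid cells, ZFP36 family proteins, Roquin and Regnase-1 send cytokine mRNAs to these enzymes. Here the mRNAs of these factors are themselves the measured RNAs.

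Counts on genes per library lay between 34445784 and 40008607 in Ctrl Input, between 37940948 and 42382532 in IR Input, between 28919897 and 33882664 in Ctrl IP and between 27852948 and 30244160 in IR IP. The member with the fewest counts in a library was Dcp1b (103) and the one with the most was Pabpc1 (113068). Reads that fell on no gene made up 27.0% ± 0.026 (SD, n = 3) of uniquely aligned reads in Ctrl Input, 24.7% ± 0.065 in IR Input, 42.3% ± 0.46 in Ctrl IP and 51.4% ± 2.43 in IR IP. This share moved with both the IP and IR, and its part in the results was not tested. All 14 markers of CD11b+ myeloid cells were at 1 CPM (1 count in 1000000 counts on genes) or more in every group, whereas the 6 T and NK cell markers summed to between 0.635 and 1.91 CPM over the Input libraries. Of the 5 epithelial markers, which the MC38 line could give, Krt19 was at 0 in all 12 libraries and the list summed to between 119 and 127 CPM in Ctrl Input and between 90.8 and 96.8 CPM in IR Input. Nearly all of that sum was Cdh1, at a mean of 119.0 CPM in Ctrl Input and 88.3 in IR Input, whereas Epcam was at 4.63 and 5.92 CPM and the keratins were under 1 CPM. The myeloid list summed to between 11330 and 12140 CPM in Ctrl Input and between 14910 and 15660 CPM in IR Input, with 10 of the 14 called higher in IR Input, Csf1r and Adgre1 called lower, and Itgb2 and Lyz2 not called. These marker levels moved with IR, and their part in the results below was not tested.

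Levels are given as CPM scaled by the trimmed mean of M values (TMM) over all 12 libraries. Levels of single genes are compared with each other only after division by the summed exon length in kilobases. On that scale Pabpc1, the main cytoplasmic poly(A)-binding protein, was the most abundant member in Ctrl Input at 343 CPM per kb, followed by Btg1 at 85.3, Zfp36l2 at 43.8, Upf1 at 37.7 and Zfp36l1 at 34.00. The lowest were Dcp1b at 1.14, Ago3 at 1.22 and Parn at 2.16 CPM per kb. Within miRISC, Tnrc6a (32.9) and Tnrc6c (17.6) were above Ago2 (9.47), Tnrc6b (8.21), Dicer1 (4.62), Ago1 (4.10), Ago4 (3.48) and Ago3, all in CPM per kb.

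The IP was set against Input in each condition to find which of these mRNAs were over- or under-represented in YTHDF2 complexes. A gene was called where edgeR's quasi-likelihood test gave a Benjamini-Hochberg adjusted p under 0.05 over all genes tested, and differences are log2 fold changes. In Ctrl, 12 of the 45 members were higher in the IP and 27 were lower. Among all 17416 genes tested 34.1% were called higher and 34.6% lower, and among the protein-coding genes 32.8% and 40.8%. In IR, 14 members were higher and 18 lower, against 32.1% and 30.4% of all 18650 genes tested and 29.2% and 37.0% of the protein-coding genes. The members called higher were thus no larger a share than among all genes, in either condition. In IR they were a slightly larger share than among the protein-coding genes. The members called lower were a larger share than among all genes and among the protein-coding genes, in both conditions. The members and these backgrounds were not matched for level in Input. The median log2 ratio over the members was -0.36 in Ctrl and -0.02 in IR, beside 0.02 and 0.10 over all genes. By pool, the median over the members was -0.40, -0.47 and -0.52 in Ctrl and -0.04, -0.14 and -0.07 in IR. The sign of the IR value depended on the scaling, since its mean over the pools was -0.085 with TMM and 0.061 with DESeq2's size factors.

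The role groups overlapped in this ranking. Ctrl ratios ran from -0.56 to 3.86 in miRISC, -1.54 to 1.65 in decapping and 5′-3′ decay, and -1.30 to 0.82 in CCR4-NOT. Of the 7 members with the largest ratios in Ctrl, 6 belonged to miRISC and the other was Ddx6, and the poly(A) and AU-rich element binding proteins were both depleted. Both conditions called 11 members higher (Cnot3, Pan3, Dcp2, Xrn1, Ddx6, Tnrc6a, Tnrc6b, Tnrc6c, Ago2, Ago4 and Dicer1) and 16 lower. The share of all genes called the same way in both conditions was not counted, here or for the role groups below. Of the 11, Cnot3, Dcp2 and Xrn1 lost their IR calls where no filter on low counts was used, Xrn1 also with all 12 libraries in 1 fit, and Dcp2 lost its Ctrl call with library size alone. Another 3, Smg1, Zfp36l1 and Zfp36l2, were lower in the Ctrl IP and higher in the IR IP. Cnot10, Upf1, Rc3h2 and Ago1 were called in neither condition.

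**Figure D1:**
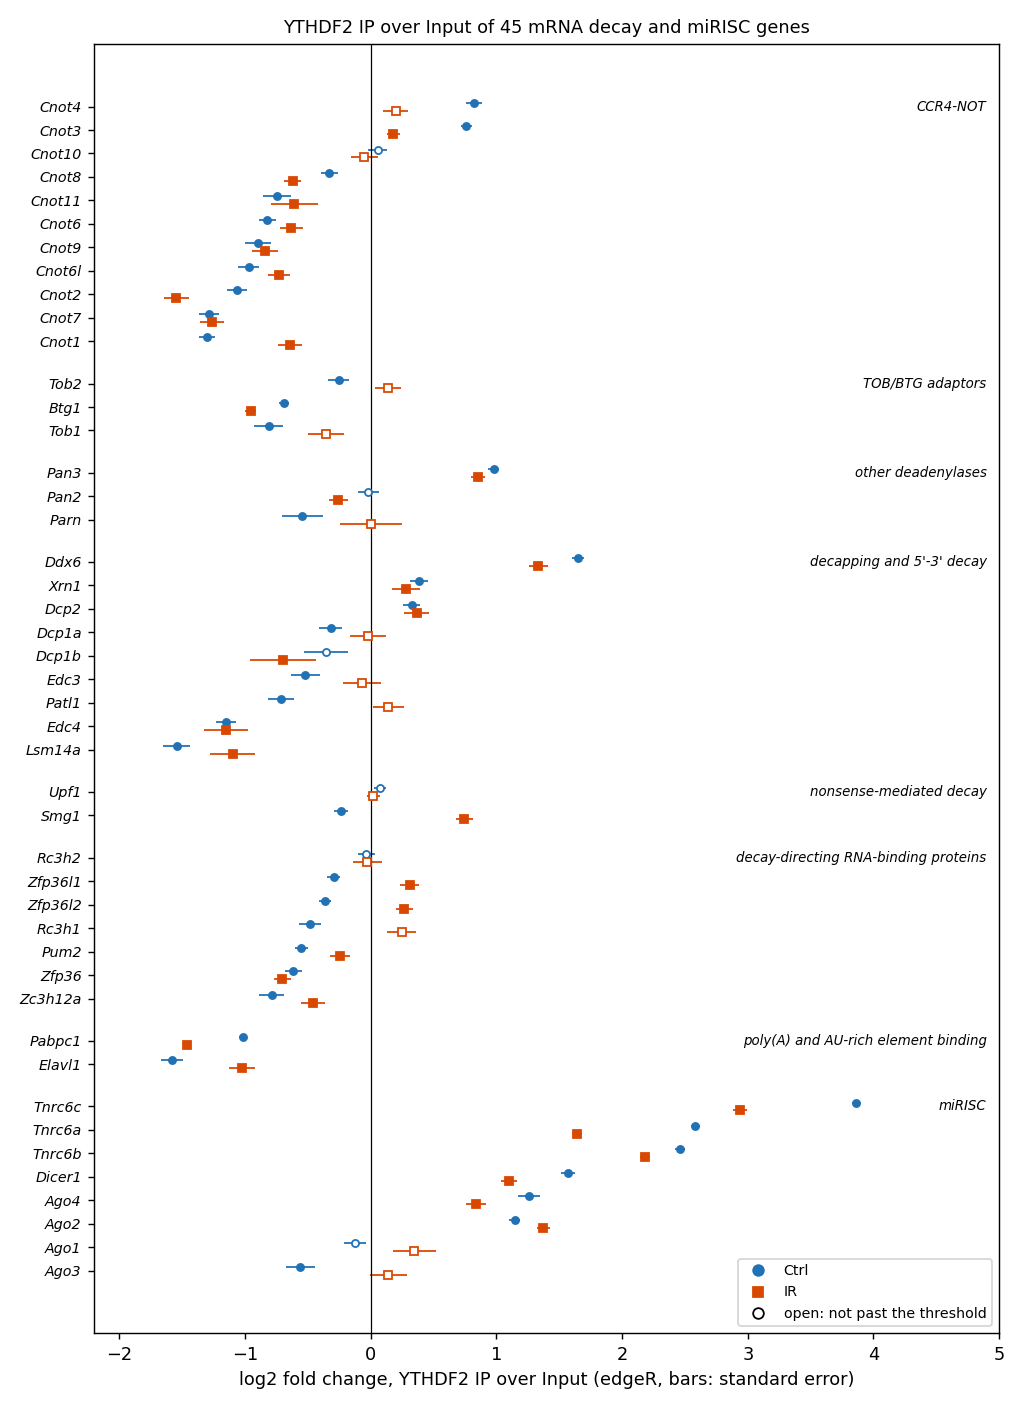
Log2 fold change of YTHDF2 IP over Input (horizontal axis, edgeR estimate with its standard error) for each of the 45 genes, ordered within role groups. Circles are Ctrl, squares are IR, and open symbols did not pass the threshold. Tnrc6c, Tnrc6a, Tnrc6b, Ddx6 and Dicer1 lie farthest to the right in Ctrl, and Elavl1 and Lsm14a farthest to the left.

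To put sequence beside these ratios, the letters GGACT, a common form of the m6A consensus with the A as the base that can be methylated, were searched on the sense strand of 1 transcript per gene (GENCODE M21, mm10). The windows below are 21 bases long, 5′ to 3′, with the motif in capitals, and each is the match closest to the stop codon. They are shown for 6 of the genes most enriched in the IP and for 5 that were depleted in Ctrl, to show that both kinds carried the motif.
Tnrc6c (chr11:117761651-117761671, plus strand, 3′ UTR): tgtgtgagGGACTtaactgtg
Tnrc6a (chr7:123192738-123192758, plus strand, coding sequence): ctccagccGGACTgatgtcaa
Tnrc6b (chr15:80923655-80923675, plus strand, coding sequence): gggacacaGGACTcccggatt
Ddx6 (chr9:44637082-44637102, plus strand, 3′ UTR): cggaaggtGGACTagtgatgg
Dicer1 (chr12:104691573-104691593, minus strand, 3′ UTR): aagcttccGGACTcacaggcg
Ago2 (chr15:73111756-73111776, minus strand, coding sequence): ctggagaaGGACTatcagcca
Smg1 (chr7:118134989-118135009, minus strand, 3′ UTR): tcagaaatGGACTgaaaaaat
Cnot1 (chr8:95723389-95723409, minus strand, coding sequence): ctacgtagGGACTcaggctat
Zfp36 (chr7:28377494-28377514, minus strand, 3′ UTR): gagggcagGGACTgctcattg
Pabpc1 (chr15:36598966-36598986, minus strand, coding sequence): tcctcgctGGACTgctcaggg
Elavl1 (chr8:4289257-4289277, minus strand, 3′ UTR): cggtggtgGGACTgaagcatg
The match of Dicer1 lay 10 bases after its stop codon and that of Zfp36 54 bases after it. GGACT was present in 97.8% of the members and in 91.8% of the 13032 protein-coding transcripts compared, and Cnot3, which was enriched in the IP, had none. Within 200 bases on either side of the stop codon, 9 of the 45 members (20.0%) held it, against 41.4% of the 11297 protein-coding transcripts long enough to compare. Whether any of these adenosines was methylated was not measured in the files used here, and a match of letters is a description only.

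The miRISC genes were the group most enriched in the YTHDF2 IP, with 6 of 8 called higher in both conditions. Among the protein-coding genes, 32.8% were called higher in Ctrl and 29.2% in IR. Tnrc6c (ENSMUSG00000025571.13, chr11:117654289-117763439 in mm10), one of the TNRC6 scaffold proteins that link Argonaute to deadenylases, had the largest ratio. In Input it was at 235, 221 and 221 CPM in the 3 Ctrl pools and at 316, 301 and 312 in the 3 IR pools. In the IP it was at 3063, 3069.6 and 3224 CPM in Ctrl and at 2412, 2089 and 2354 in IR. Every IP library was above every Input library, and within the IP all IR pools were below all Ctrl pools while within Input they were above. The log2 ratio of IP to Input was 3.86 ± 0.0392 (SE, adjusted p = 2.0e-20) in Ctrl and 2.94 ± 0.0555 (SE, adjusted p = 1.9e-11) in IR, a 14.6-fold and a 7.66-fold enrichment. It ranked 125 of 13042 protein-coding genes by this ratio in Ctrl and 787 of 13804 in IR.

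Tnrc6a (chr7:123123885-123195296), its paralog, showed the same order of groups. In Input it was at 434, 415 and 406 CPM in Ctrl and 585, 558 and 577 in IR, and in the IP at 2344, 2358 and 2433 in Ctrl and 1761, 1665 and 1748 in IR. As a log2 ratio of IP to Input, this was 2.58 ± 0.0369 (SE, adjusted p = 6.9e-19) in Ctrl and 1.64 ± 0.0378 (SE, adjusted p = 6.3e-11) in IR. Tnrc6b (chr15:80711313-80941085) was at 198, 192 and 194 CPM in Ctrl Input and 238, 235 and 229.6 in IR Input. Its IP levels were 1041, 977 and 1026 CPM in Ctrl and 1017, 1007 and 1055 in IR, and these overlapped, unlike those of Tnrc6a and Tnrc6c. The IP differed from Input by 2.46 ± 0.0387 (SE, adjusted p = 1.8e-18) on the log2 scale in Ctrl and by 2.19 ± 0.0396 (SE, adjusted p = 1.5e-11) in IR. Tnrc6b had the longest transcript of the 3 (17332 bases, with 23 GGACT matches) and Tnrc6a the fewest matches (4 in 8183 bases).

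The Argonaute genes, whose proteins hold the microRNA, did not move as one. Ago2, the only mouse Argonaute with well established slicing of its targets, was at 131, 130.03 and 138 CPM in Ctrl Input and 99.4, 103 and 101 in IR Input, and at 271, 286 and 280.3 in the Ctrl IP and 243, 258 and 259 in the IR IP. Its IP libraries were all above its Input libraries. The log2 ratio of IP to Input was 1.15 ± 0.0441 (SE, adjusted p = 1.7e-13) in Ctrl and 1.37 ± 0.0514 (SE, adjusted p = 2.0e-09) in IR. Ago4 was at 23.7, 24.7 and 24.04 CPM in Ctrl Input, 37.1, 35.1 and 36.8 in IR Input, 52.96, 62.2 and 49.5 in the Ctrl IP and 61.99, 59.9 and 65.4 in the IR IP, with no overlap between IP and Input in either condition. As a log2 ratio of IP to Input, this was 1.26 ± 0.0889 (SE, adjusted p = 7.9e-10) in Ctrl and 0.83 ± 0.0803 (SE, adjusted p = 4.8e-06) in IR.

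Ago3 was instead lower in the Ctrl IP, at 20.8, 19.4 and 20.7 CPM in Ctrl Input and 14.9, 11.6 and 12.7 in the Ctrl IP. In IR its levels were 13.9, 17.1 and 13.2 CPM in Input and 15.97, 15.4 and 15.6 in the IP, and these overlapped. The IP differed from Input by -0.56 ± 0.118 (SE, adjusted p = 4.3e-04) on the log2 scale in Ctrl and by 0.14 ± 0.147 (SE, adjusted p = 0.426) in IR, the latter not past the threshold. Ago1 was at 31.9, 34.1 and 34.01 CPM in Ctrl Input, 23.4, 25.05 and 26.2 in IR Input, 30.6, 25.96 and 30.6 in the Ctrl IP and 25.8, 40.1 and 25.6 in the IR IP, where 1 pool stood above the others. Ago1 passed in neither condition, at -0.12 ± 0.0877 (SE) and 0.35 ± 0.168 (SE). Ago3 had almost as many GGACT matches as Ago2 (14 and 15) and a longer transcript (15595 and 13800 bases), so neither count separated the enriched from the depleted Argonaute gene.

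Dicer1, the enzyme that cuts microRNA precursors (chr12:104687742-104751952), was at 82.4, 78.3 and 71.6 CPM in Ctrl Input and 64.4, 72.1 and 67.9 in IR Input, and at 213, 210.2 and 231 in the Ctrl IP and 139, 146 and 138 in the IR IP. All IP libraries were above all Input libraries, and the IR IP pools were all below the Ctrl IP pools. The log2 ratio of IP to Input was 1.57 ± 0.0583 (SE, adjusted p = 1.0e-13) in Ctrl and 1.10 ± 0.0640 (SE, adjusted p = 7.1e-08) in IR.

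**Figure D2:**
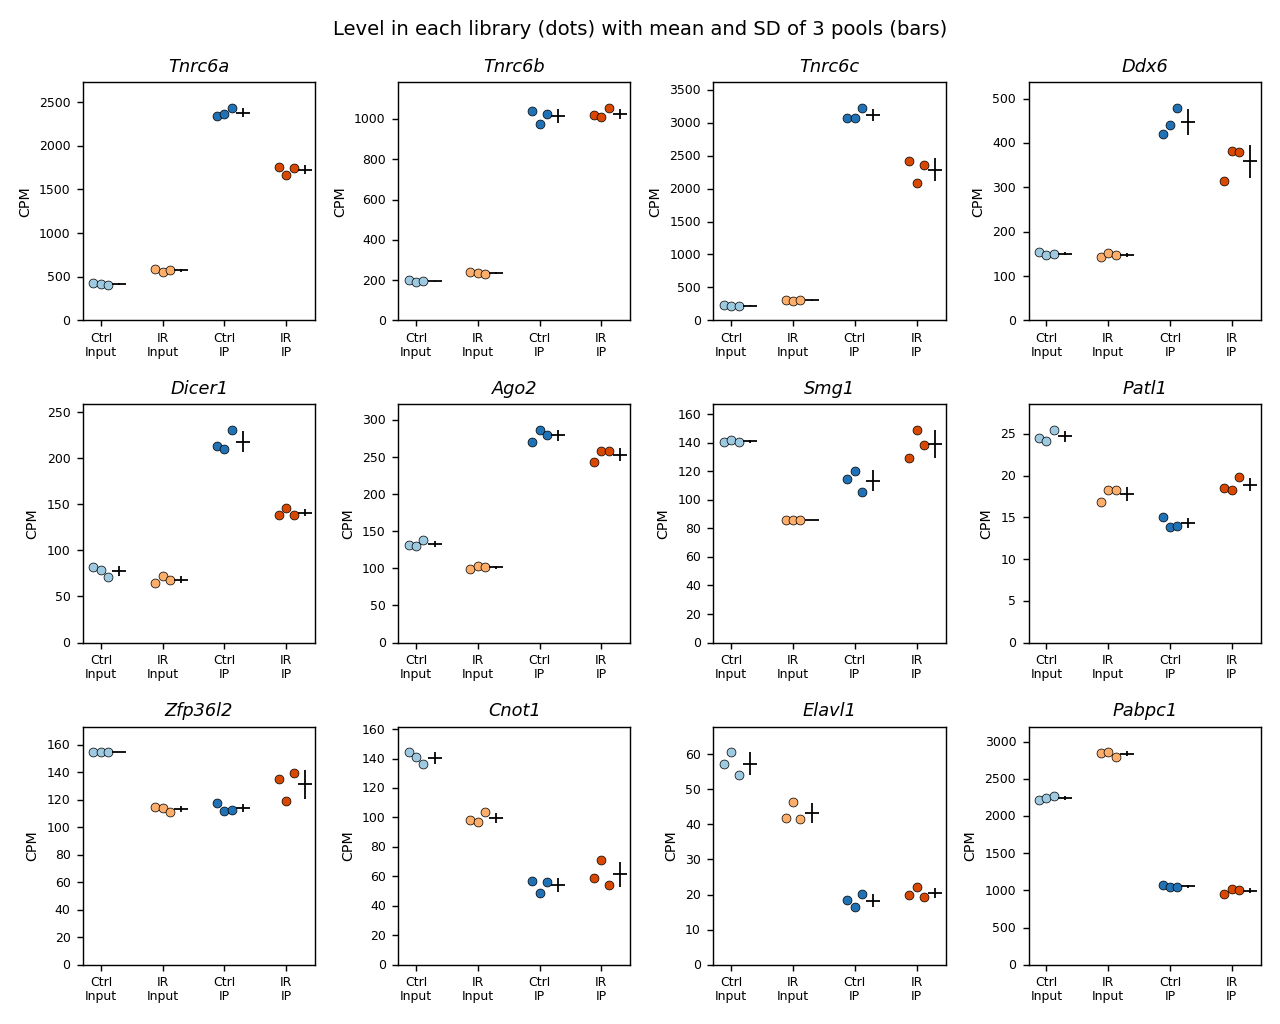
TMM-scaled CPM (vertical axis, linear and starting at 0) of 12 genes in each of the 12 libraries, as dots by group, with the mean and SD of the 3 pools as the black bar. The IP dots of the Tnrc6 genes, Ddx6, Dicer1 and Ago2 stand above Input in both conditions, those of Cnot1, Elavl1 and Pabpc1 stand below it, and those of Smg1 and Zfp36l2 stand below Input in Ctrl and above it in IR.

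Among the 9 genes of decapping and 5′-3′ decay, 3 were higher in both IPs and 5 were lower in Ctrl. Ddx6 (chr9:44604892-44640731), a DEAD-box helicase that joins CCR4-NOT to decapping and translational repression, was the most enriched member outside miRISC. It was at 153, 148 and 150.1 CPM in Ctrl Input and 143, 151 and 148 in IR Input, against 421, 441 and 479 in the Ctrl IP and 315, 382 and 379 in the IR IP. The IP and Input libraries did not overlap. As a log2 ratio of IP to Input, this was 1.65 ± 0.0481 (SE, adjusted p = 3.8e-15) in Ctrl and 1.33 ± 0.0720 (SE, adjusted p = 3.9e-08) in IR. Xrn1, the 5′-3′ exonuclease, and Dcp2, the decapping enzyme, had smaller ratios of 0.38 ± 0.0747 (SE) and 0.33 ± 0.0683 (SE) in Ctrl and 0.28 ± 0.109 (SE) and 0.37 ± 0.0990 (SE) in IR. The IR call for Xrn1 was lost without IR pool 2 (0.30) or IR pool 3 (0.33).

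The other genes of this group had negative ratios in Ctrl. Lsm14a, a P-body protein, was at -1.54 in Ctrl and -1.10 in IR, and Edc4, the scaffold of the decapping complex, at -1.15 and -1.15, all called lower. Patl1, Edc3 and Dcp1a were lower in Ctrl only by call (-0.71, -0.52 and -0.32), with IR values of 0.14, -0.07 and -0.02. The Dcp1a call was lost without Ctrl pool 3, where the value was -0.23. Dcp1b, at -0.36 in Ctrl, was called lower in IR at -0.70, a call lost without any 1 of the IR pools (-0.82 to -0.42). For Edc3, 22.1% of the exon bases overlap Clk3 on the opposite strand, which had 60955 counts over the 12 libraries against 6263 for Edc3, and as the strand setting of the counting was not given, reads of these genes may not be told apart.

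CCR4-NOT, the main cytoplasmic deadenylase and the complex that YTHDF2 binds, was mostly under-represented in the IP, with 8 of its 11 genes lower in both conditions. Among the protein-coding genes, 40.8% were called lower in Ctrl and 37.0% in IR, and the share lower in both was not counted. Cnot1, the scaffold, was at 144, 141 and 136 CPM in Ctrl Input and 98.2, 96.7 and 103 in IR Input, and at 56.9, 48.98 and 56.5 in the Ctrl IP and 58.99, 70.97 and 54.2 in the IR IP. Every IP library was below every Input library, and only the Input moved without overlap between conditions. The IP differed from Input by -1.30 ± 0.0618 (SE, adjusted p = 3.2e-12) on the log2 scale in Ctrl and by -0.64 ± 0.0944 (SE, adjusted p = 1.4e-04) in IR. Cnot2, a structural subunit, was at 53.1, 53.1 and 56.02 CPM in Ctrl Input, 57.7, 55.3 and 52.7 in IR Input, 22.5, 25.4 and 25.8 in the Ctrl IP and 19.4, 16.5 and 18.8 in the IR IP. It was the most depleted CCR4-NOT gene in IR, with ratios of -1.06 ± 0.0796 (SE, adjusted p = 1.8e-09) and -1.55 ± 0.102 (SE, adjusted p = 2.1e-07).

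The catalytic subunits come in paralog pairs that were depleted to different degrees. Of the CAF1-type nucleases, Cnot7 was at 50.9, 51.9 and 55.5 CPM in Ctrl Input and 19.3, 20.7 and 21.7 in the Ctrl IP, and at 51.4, 55.3 and 51.5 and 20.9, 19.9 and 22.6 in IR. Cnot8 was at 75.3, 81.9 and 83.01 CPM in Ctrl Input and 55.7, 62.2 and 63.7 in the Ctrl IP, and at 91.6, 86.03 and 84.8 and 55.05, 53.3 and 56.1 in IR. Both genes were below Input in every pool, with ratios of -1.28 ± 0.0811 (SE) and -1.27 ± 0.0961 (SE) for Cnot7 and -0.33 ± 0.0661 (SE) and -0.62 ± 0.0690 (SE) for Cnot8, in Ctrl and IR. Per kb of exon, Cnot8 was the more abundant in Ctrl Input, at 30.4 CPM per kb against 9.06 for Cnot7. Of the CCR4-type nucleases, Cnot6 was at 77.5, 79.6 and 71.3 CPM in Ctrl Input and 43.6, 39.8 and 39.2 in the Ctrl IP, and at 73.1, 73.8 and 73.6 and 45.5, 51.01 and 40.6 in IR. Cnot6l was at 49.1, 49.4 and 47.8 CPM in Ctrl Input and 22.1, 24.9 and 23.7 in the Ctrl IP, and at 46.8, 50.1 and 47.5 and 27.1, 27.4 and 29.3 in IR. Their ratios lay close together, at -0.82 ± 0.0700 (SE) and -0.63 ± 0.0895 (SE) for Cnot6 and -0.97 ± 0.0797 (SE) and -0.73 ± 0.0897 (SE) for Cnot6l.

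The other lower genes of the complex were Cnot9 (-0.90 in Ctrl and -0.84 in IR) and Cnot11 (-0.75 and -0.61), where the IR call of Cnot11 was lost without pool 2 (-0.56) or pool 3 (-0.46). The exceptions were Cnot3 and Cnot4. Cnot3, a regulatory subunit, was higher in the IP at 0.76 ± 0.0424 (SE, adjusted p = 3.1e-11) in Ctrl and 0.18 ± 0.0536 (SE, adjusted p = 0.0125) in IR. Cnot4, a ubiquitin ligase that associates with the complex, was higher in Ctrl at 0.82 ± 0.0627 (SE, adjusted p = 2.3e-09) and at 0.20 ± 0.0979 (SE) in IR, where it did not pass. Cnot10 was close to 0 in both, at 0.06 and -0.05.

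The TOB and BTG adaptors, antiproliferative proteins that bring CAF1 to mRNAs, were all lower in the Ctrl IP. Btg1, the most abundant of them, was at 436, 457 and 458 CPM in Ctrl Input, 645, 652 and 655 in IR Input, 270.1, 257 and 268 in the Ctrl IP and 314, 312 and 344 in the IR IP. It rose with IR in both fractions with no overlap, and its ratio was -0.69 ± 0.0388 (SE) in Ctrl and -0.96 ± 0.0465 (SE) in IR. Tob1 was at 21.1, 24.5 and 22.7 CPM in Ctrl Input, 30.01, 33.6 and 29.6 in IR Input, 11.6, 13.8 and 11.6 in the Ctrl IP and 23.04, 19.2 and 28.03 in the IR IP. Its groups also separated by condition in both fractions, with ratios of -0.81 ± 0.116 (SE, adjusted p = 7.6e-06) and -0.35 ± 0.143 (SE, adjusted p = 0.0503). With the replicate block, which compares the IP and Input of the same pool, the IR value of Tob1 was -0.37 and passed. Tob2 was at 40.1, 47.9 and 41.7 CPM in Ctrl Input, 37.3, 35.5 and 39.7 in IR Input, 35.8, 31.9 and 35.6 in the Ctrl IP and 35.5, 43.3 and 40.5 in the IR IP. Its ratio was -0.25 ± 0.0848 (SE) in Ctrl, a call lost without Ctrl pool 2 (-0.11), and 0.14 ± 0.102 (SE) in IR, which did not pass.

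Of the other deadenylases, Pan3, the partner that tethers the PAN2 nuclease to poly(A), was enriched while Pan2 was not. Pan3 was at 111, 118 and 117 CPM in Ctrl Input, 108, 115 and 111 in IR Input, 222, 214 and 211 in the Ctrl IP and 202, 191 and 188 in the IR IP, with IP above Input in every pool. The log2 ratio of IP to Input was 0.98 ± 0.0458 (SE, adjusted p = 2.6e-12) in Ctrl and 0.86 ± 0.0552 (SE, adjusted p = 1.7e-07) in IR. Pan2 was at -0.02 in Ctrl and was called lower in IR at -0.26, a call lost without any 1 of the IR pools (-0.19 to -0.18). Parn, a nuclease of poly(A) and small RNA tails, was lower in Ctrl at -0.55, a call lost without Ctrl pool 3 (-0.50), and at 0.004 in IR.

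Of the nonsense-mediated decay genes, the helicase gene Upf1 was at 0.07 ± 0.0484 (SE) in Ctrl and 0.02 ± 0.0513 (SE) in IR and passed in neither. Smg1, the kinase that phosphorylates UPF1 (chr7:118131308-118243670), changed sides. It was at 141, 142 and 140.4 CPM in Ctrl Input and 115, 119.9 and 105 in the Ctrl IP, and at 86.1, 85.7 and 86.03 in IR Input and 129, 149 and 138 in the IR IP. The IP was below Input in every Ctrl pool and above it in every IR pool, and the Input values of each condition lay close together. As a log2 ratio of IP to Input, this was -0.24 ± 0.0537 (SE, adjusted p = 7.9e-04) in Ctrl and 0.75 ± 0.0647 (SE, adjusted p = 2.0e-06) in IR.

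The RNA-binding proteins that direct decay were at or below Input in the Ctrl IP, with 6 of 7 called lower and none higher. Zfp36 (tristetraprolin), which binds AU-rich elements of cytokine mRNAs, was at 73.8, 77.9 and 82.96 CPM in Ctrl Input, 99.1, 109.5 and 106 in IR Input, 49.8, 50.04 and 45.3 in the Ctrl IP and 65.5, 60.4 and 60.5 in the IR IP. It was depleted to a like degree in both conditions, at -0.62 ± 0.0671 (SE) and -0.70 ± 0.0697 (SE). Its paralog Zfp36l1 was at 96.05, 106 and 103 CPM in Ctrl Input, 89.8, 99.1 and 87.9 in IR Input, 78.6, 76.1 and 81.1 in the Ctrl IP and 102, 119 and 110.1 in the IR IP. The IP lay below Input in Ctrl and above it in IR, with ratios of -0.30 ± 0.0553 (SE, adjusted p = 1.4e-04) and 0.31 ± 0.0751 (SE, adjusted p = 0.00413). The other paralog Zfp36l2 was at 155, 155 and 155 CPM in Ctrl Input, 114, 114 and 111 in IR Input, 118, 112 and 113 in the Ctrl IP and 135, 119 and 139 in the IR IP. It changed sides in the same way, at -0.36 ± 0.0463 (SE, adjusted p = 1.9e-06) and 0.27 ± 0.0681 (SE, adjusted p = 0.00554). The IR calls of Zfp36l1 and Zfp36l2 were lost where no filter on low counts was used. For Zfp36l1, 55.9% of the exon bases overlap Gm26669 on the opposite strand, which had 363 counts against 39926 for Zfp36l1.

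Zc3h12a, which encodes the endonuclease Regnase-1, was the most depleted of this group in Ctrl. It was at 30.8, 37.2 and 34.3 CPM in Ctrl Input, 40.2, 37.3 and 37.7 in IR Input, 20.2, 17.4 and 18.7 in the Ctrl IP and 27.6, 25.7 and 27.4 in the IR IP, below Input in every pool. Its ratios were -0.79 ± 0.0983 (SE) and -0.46 ± 0.0959 (SE), both called. Pum2, a Pumilio protein that recruits CCR4-NOT, was at -0.55 in Ctrl and -0.25 in IR, where the call was lost without any 1 of the IR pools (-0.25 to -0.10). The Roquin genes Rc3h1 and Rc3h2 were at -0.48 (called) and -0.03 in Ctrl and at 0.25 and -0.03 in IR, where neither passed.

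Pabpc1 and Elavl1, whose proteins protect poly(A) tails and AU-rich mRNAs, were depleted in both conditions. Pabpc1 was at 2219, 2242 and 2265 CPM in Ctrl Input, 2849.9, 2857 and 2799 in IR Input, 1071, 1039.8 and 1049 in the Ctrl IP and 955, 1013 and 1011 in the IR IP. The IP differed from Input by -1.01 ± 0.0299 (SE, adjusted p = 4.3e-15) on the log2 scale in Ctrl and by -1.46 ± 0.0325 (SE, adjusted p = 4.9e-11) in IR. Pabpc1 has processed copies elsewhere in the genome, so its count is uncertain to the extent that reads could be placed on them. Elavl1 (HuR) was at 57.2, 60.6 and 54.2 CPM in Ctrl Input, 41.8, 46.4 and 41.4 in IR Input, 18.4, 16.3 and 20.02 in the Ctrl IP and 19.8, 22.2 and 19.4 in the IR IP. Its IP libraries were all below its Input libraries. The log2 ratio of IP to Input was -1.58 ± 0.0886 (SE, adjusted p = 3.3e-11) in Ctrl and -1.02 ± 0.105 (SE, adjusted p = 8.1e-06) in IR, the lowest value of any member in Ctrl.

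Input libraries were then compared between conditions, to see which of these mRNAs were at another level in the myeloid cells of irradiated tumors. Of the 45 members, 11 were higher in IR Input and 23 lower, against 21.0% and 23.9% of all 16914 genes tested and 23.2% and 27.1% of the protein-coding genes, and the members' median was -0.13 beside 0.01 over all genes. In bulk samples, fewer cells of a type and less RNA per cell cannot be told apart. Smg1 fell most, at -0.79 ± 0.0370 (SE, adjusted p = 1.5e-15), with all IR pools below all Ctrl pools. Others that fell were Cnot1 (-0.58), Patl1 (-0.55), Ago3 (-0.54), Rc3h1 (-0.54), Zfp36l2 (-0.53), Ago1 (-0.50), Dcp2 (-0.49), Elavl1 (-0.49) and Ago2 (-0.47).

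The rises in Input were smaller in number. Ago4 rose most, at 0.51 ± 0.0625 (SE, adjusted p = 1.6e-07), so that Ago4 moved up while Ago1, Ago2 and Ago3 moved down. Btg1 (0.45), Tnrc6c (0.38), Tnrc6a (0.38), Tob1 (0.37), Zfp36 (0.35), Cnot4 (0.26), Pabpc1 (0.26), Pan2 (0.19), Tnrc6b (0.19) and Cnot3 (0.14) made up the other 10. None of the 9 decapping genes rose and 6 fell, while miRISC divided into 4 that rose and 4 that fell. By paralogs, Zfp36 rose while Zfp36l1 (-0.22) and Zfp36l2 fell, and Tob1 and Btg1 rose while Tob2 (-0.28) fell. With all 12 libraries in 1 fit, which share 1 estimate of the spread and 1 scaling, 10 of the 23 lower calls were lost (Cnot6, Cnot9, Cnot11, Tob2, Pan3, Dcp1a, Edc3, Lsm14a, Ddx6 and Zfp36l1). That fit tested 20720 genes, and the median of all genes moved up by 0.090. It called 2621 genes higher and 1500 lower, against 3557 and 4047 with Input alone. The parts of the spread and of the scaling in the lost calls were not tested. Of the decapping genes only Dcp2 and Patl1 were then called lower, and the paralog contrasts kept Zfp36l2 but neither Zfp36l1 nor Tob2. The call of Cnot6 (-0.13) was lost without any 1 pool other than Ctrl pool 3 (-0.13 to -0.10), that of Edc3 (-0.28) without Ctrl pool 3 (-0.26), IR pool 1 (-0.24) or IR pool 3 (-0.20), that of Cnot11 (-0.31) without IR pool 3 (-0.22) and that of Ddx6 (-0.11) without IR pool 1 (-0.08).

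The same comparison in the IP moved fewer members. Of the 45, 6 were higher in the IR IP (Tob1, Btg1, Smg1, Zfp36, Zfp36l1 and Zc3h12a) and 6 lower (Cnot3, Dcp2, Ddx6, Tnrc6a, Tnrc6c and Dicer1), against 6.12% and 9.85% of all 19255 genes tested and 6.95% and 12.5% of the protein-coding genes. Scaled by library size alone, 17 members were higher and 3 lower, and the median of all genes moved by 0.21. Tob1 rose most, at 0.94 ± 0.176 (SE, adjusted p = 0.00150). Dicer1 fell most, at -0.62 ± 0.0639 (SE, adjusted p = 3.9e-06). Tnrc6a (-0.45 ± 0.0339 (SE)) and Tnrc6c (-0.44 ± 0.0441 (SE)) fell by nearly the same amount, while Tnrc6b was at 0.03 ± 0.0403 (SE) and did not pass. The calls of Tob1, Btg1, Zfp36l1, Tnrc6a, Tnrc6c and Dicer1 held under each of the 14 alternatives. The call of Dcp2 (-0.34) was lost without Ctrl pool 1, 2 or 3 or IR pool 2 or 3 (-0.35 to -0.30), that of Zc3h12a (0.53) without Ctrl pool 2 (0.48) or 3 (0.53), and those of Smg1 (0.30) and Zfp36 (0.37) without Ctrl pool 3 (0.25 and 0.33). With all 12 libraries in 1 fit, 10 members were higher and 12 lower, and with library size alone the calls of Cnot3, Dcp2 and Ddx6 were lost.

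**Figure D3:**
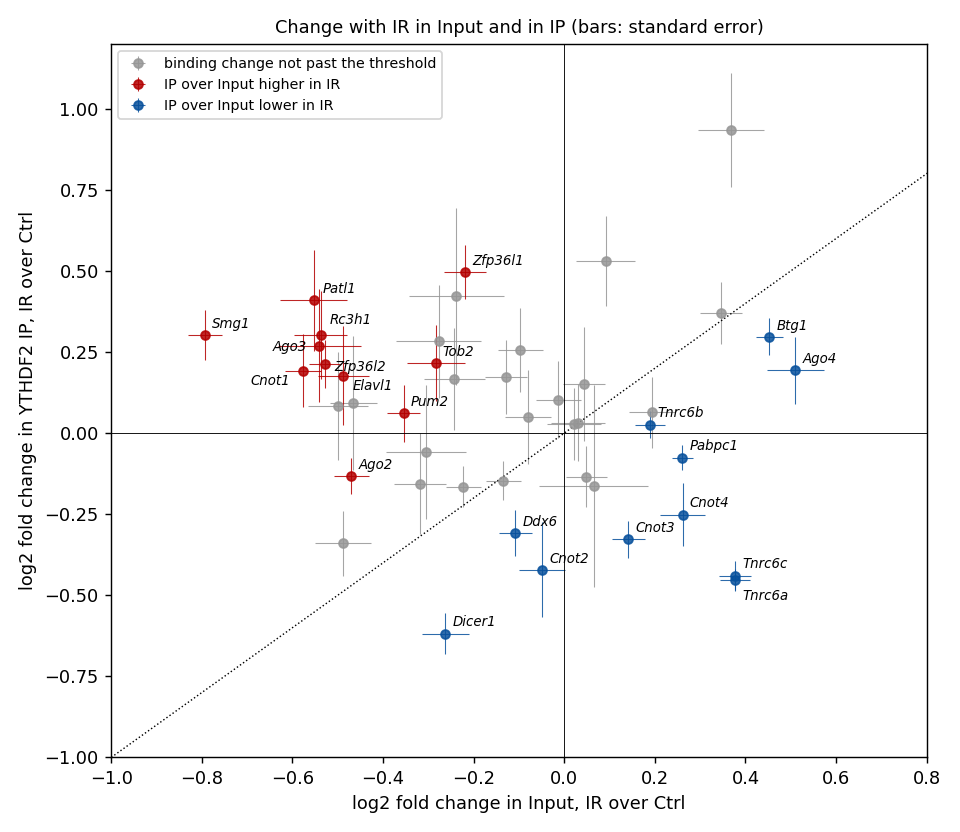
Log2 fold change of IR over Ctrl in Input (horizontal axis) and in the YTHDF2 IP (vertical axis) for the 45 genes, with standard errors. The dotted line marks equal change. Each axis has its own fit and scaling, so a point just above the line need not have a higher ratio of IP to Input in IR. Zfp36 lies above it, at 0.35 in Input and 0.37 in the IP, with a change of the ratio of -0.06. The 11 genes called higher in the ratio of IP to Input (red) all lie left of 0, and 8 of the 11 called lower (blue) lie right of it. The share of all genes in these positions was not counted.

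Whether the ratio of IP to Input itself changed with IR was tested as the interaction of fraction and condition over all 12 libraries. The ratio rose for 11 members and fell for 11, against 6.28% and 13.9% of all 20720 genes tested and 7.23% and 17.9% of the protein-coding genes, with a median of 0.06 over the members and -0.08 over all genes. Scaled by library size alone, the median of all genes moved by 0.31, and 21 members were higher and 3 lower. The changes are therefore also given relative to the median of all genes where they are largest. Smg1 rose most, at 1.01 ± 0.0858 (SE, adjusted p = 4.8e-08), and at 1.32 with library size alone. Both values were 1.09 above the median of all genes in their own fit. Scaling moves a gene and that median by nearly the same amount, so this match is no check of the scaling. The ratio of Smg1 in single pools was -0.29, -0.24 and -0.41 in Ctrl and 0.59, 0.80 and 0.69 in IR. Next came Patl1 (0.87 ± 0.154 (SE)), Rc3h1 (0.75 ± 0.145 (SE)), Ago3 (0.72 ± 0.190 (SE)), Cnot1 (0.68 ± 0.118 (SE)), Zfp36l2 (0.65 ± 0.0814 (SE)) and Zfp36l1 (0.63 ± 0.0970 (SE)).

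All 11 members whose ratio rose were called lower in IR Input, and 2 of them, Smg1 and Zfp36l1, were also called higher in the IR IP. The other 9 (Cnot1, Tob2, Patl1, Zfp36l2, Pum2, Rc3h1, Elavl1, Ago2 and Ago3) did not pass in the IP. These comparisons share the same libraries, so a lower Input by itself raises the ratio. The share of all genes with the same joint calls was not counted, so these counts describe the members only. Of the decay-directing RNA-binding proteins, 4 of 7 rose in this ratio (Zfp36l1, Zfp36l2, Pum2 and Rc3h1) and none fell. Ago2 rose by 0.25 ± 0.0663 (SE), the opposite direction from the other enriched miRISC genes.

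The ratio fell most for Tnrc6a, at -0.92 ± 0.0481 (SE, adjusted p = 4.8e-11), and Tnrc6c, at -0.90 ± 0.0619 (SE, adjusted p = 2.0e-09). With library size alone these changes were -0.61 and -0.59. Relative to the median of all genes they were -0.84 and -0.82 with TMM and -0.83 and -0.82 with library size alone. Subtracting the median gives this match whatever the scaling. In single pools the ratio of Tnrc6a was 2.43, 2.51 and 2.58 in Ctrl and 1.59, 1.58 and 1.60 in IR. Both genes rose in Input and fell in the IP, as did Cnot3. Tnrc6b fell by less, at -0.25 ± 0.0514 (SE), with no call in the IP. Dicer1 (-0.44 ± 0.0888 (SE)) and Ddx6 (-0.29 ± 0.0894 (SE)) fell in the ratio while being lower in both fractions, and Cnot4 (-0.60 ± 0.122 (SE)), Ago4 (-0.40 ± 0.123 (SE)) and Pabpc1 (-0.42 ± 0.0405 (SE)) fell with a higher Input and no call in the IP. Cnot2 (-0.46 ± 0.128 (SE)) fell with no call in either fraction, and Btg1 (-0.24 ± 0.0601 (SE)) rose in both fractions but less in the IP. With library size alone the values of Btg1 (0.07), Ddx6 (0.02) and Tnrc6b (0.06) turned positive, while relative to the median of all genes they were -0.16, -0.20 and -0.17.

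Of the 22 changes in the ratio, 9 held under each of the 13 alternatives (Cnot1, Cnot3, Patl1, Smg1, Zfp36l1, Zfp36l2, Rc3h1, Tnrc6a and Tnrc6c). Among the others, Cnot2 lost its call without Ctrl pool 2 (-0.42), Ctrl pool 3 (-0.45) or IR pool 2 (-0.37), and Pum2 without the same pools (0.32, 0.31 and 0.27). Tob2 (0.41) lost its call without Ctrl pool 2 (0.28), Ctrl pool 3 (0.47) or IR pool 2 (0.33), and with the replicate block, where it was 0.41 ± 0.153 (SE, adjusted p = 0.0665, against 0.0394 without the block and between 0.000714 and 0.244 over its alternatives). Ago4 lost its call without Ctrl pool 1 (-0.41), Ctrl pool 2 (-0.32), IR pool 1 (-0.37) or IR pool 2 (-0.38), and Ddx6 without Ctrl pool 2 (-0.28) or 3 (-0.23). Btg1 lost it without Ctrl pool 1 (-0.20), Elavl1 without Ctrl pool 2 (0.46), and Ago2 (0.23) and Ago3 (0.69) without Ctrl pool 3. With library size alone, Cnot2, Cnot4, Pabpc1, Ago4 and Dicer1 also lost their calls.

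Transcript features that played no part in naming the genes were set beside the ratios as a description. The members' transcripts were long, with a median of 4645 bases against 2959 over the protein-coding genes, and the 12 that were higher in the Ctrl IP had a median of 7360 bases against 3530 for the 27 that were lower. Across the 45 members the ratio in Ctrl followed transcript length with a Spearman rho of 0.43, and the number of GGACT matches with 0.37. Across 13032 protein-coding genes the same values were both 0.25. Per kb of transcript, GGACT followed the ratio at 0.17 among the members and 0.09 among the protein-coding genes. In IR the rho with length was 0.58 over the members and 0.36 over 13794 protein-coding genes. The median level in Ctrl Input, as CPM not divided by length, was 57.35 over the members and 23.12 over the protein-coding genes. With the mean level in Input, the ratio had a rho of 0.24 in Ctrl and 0.17 in IR over the members. Over the protein-coding genes these values were -0.21 and -0.41. The part of level in the shares of calls was not tested. These are correlations across genes within the same libraries, where genes are not independent replicates, and the number of matches is itself tied to length. Smg1, Ago3, Cnot1 and Cnot6l were long transcripts without enrichment in Ctrl.

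**Figure D4:**
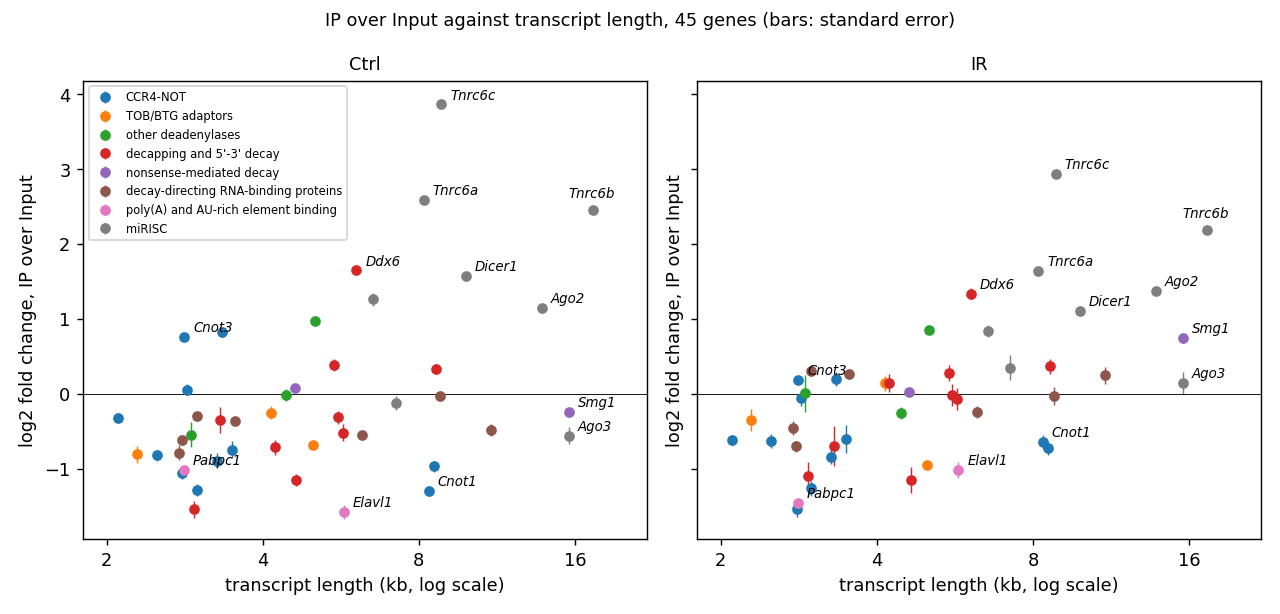
Log2 fold change of IP over Input (vertical axis, with standard error) against transcript length (horizontal axis, kb, log scale) for the 45 genes in Ctrl (left) and IR (right), colored by role group. The Tnrc6 genes, Ddx6, Dicer1 and Ago2 are both long and enriched, while Cnot1, Elavl1, Ago3 and, in Ctrl, Smg1 are long and not enriched.

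Other genes of mRNA decay, listed by complex, give the surroundings of these values. Of 61 such genes, 60 were tested in Ctrl, where 15 were higher in the IP, 34 lower and 11 not called, with a median of -0.33, close to the -0.36 of the 45 members. Upf2 (3.31) and Upf3b (2.13), partners of UPF1 in nonsense-mediated decay, were the most enriched of them, beside Upf1 itself at 0.07. Upf2 was at 290.3, 264 and 250.2 CPM in Ctrl Input and 2396, 2515 and 2681 in the Ctrl IP, and at 402, 361 and 375 and 1328, 1506 and 1521 in IR. The ratio of Upf2 changed with IR by -1.30 ± 0.0817 (SE). Lsm5 (-2.11), of the ring that joins decapping, and Btg3 (-1.996), a TOB/BTG relative, were the most depleted. In the LSM ring 6 of 7 genes were lower in Ctrl and in the exosome and SKI group 9 of 15 tested, with 1 higher. The other nonsense-mediated decay genes went the other way, with 5 of 8 higher and 2 lower (median 0.78). Of 5 microRNA processing genes 2 were higher and 2 lower, as in other decapping and 5′-3′ decay. In other deadenylation 2 of 7 were higher and 4 lower, and in other mRNA-binding regulators 3 of 13 and 9. For the change of the ratio with IR, 2 of the 60 rose and 16 fell, against 11 and 11 of the 45 members.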

How the data were processed

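Per the labels and the study's methods, reads from YTHDF2 IP and Input libraries were trimmed with Trimmomatic 0.39, aligned to the mm10 genome by HISAT using GENCODE M19 gene models, and counted per gene with HTSeq. The deposited values are whole-number counts with no normalization, and rows for reads on no gene were left out of library sizes and tests. Duplicate removal and the strand option of HTSeq were not given in the sources used here. Symbols, coordinates and transcripts came from GENCODE M21 on the same build, and 99.9% of the gene identifiers matched.

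Each comparison was fitted to its own libraries with edgeR 4.0.16 (quasi-likelihood test, TMM, R 4.3.3), over genes that reached 10 counts in 3 or more libraries, with Benjamini-Hochberg adjustment over all genes tested. The interaction used all 12 libraries. Standard errors were derived from each gene's log2 fold change and F statistic. Ratios for single pools used a prior count of 2. Intervals and errors cover the spread between 3 pools.

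The members and lists were chosen with earlier results of these data known. Every member may be named. Values in every library were given for the called member with the largest ratio of each role group in Ctrl and in IR, the largest rise and fall of the other comparisons, and 6 groups of paralogs. Of the other decay genes, the largest 2 in each direction were named. Alternatives were DESeq2 1.42.0, DESeq2's size factors, library size alone, other filters, protein-coding genes only, the replicate block, 1 fit of all 12 libraries, and leaving out each pool.

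Input and IP with the same number came from the same lysate per the study's methods. Their deviations from the group means had correlations between -0.019 and 0.015 across genes. Replicates differed by more than counting noise, with variance-to-mean ratios from 3.59 to 21.5.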

Additional observations from a re-analysis of the deposited data

Results flagged for a closer look

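The ratio of IP to Input differed between Ctrl and IR for 22 members by a test of the difference itself (edgeR's quasi-likelihood test of the interaction, adjusted over all genes tested). As log2 changes, IR minus Ctrl, the higher ones were Smg1 (1.01), Patl1 (0.87), Rc3h1 (0.75), Ago3 (0.72), Cnot1 (0.68), Zfp36l2 (0.65), Zfp36l1 (0.63), Elavl1 (0.58), Tob2 (0.41), Pum2 (0.33) and Ago2 (0.25). The lower ones were Tnrc6a (-0.92), Tnrc6c (-0.90), Cnot4 (-0.60), Cnot3 (-0.56), Cnot2 (-0.46), Dicer1 (-0.44), Pabpc1 (-0.42), Ago4 (-0.40), Ddx6 (-0.29), Tnrc6b (-0.25) and Btg1 (-0.24). Reads that fell on no gene, which no comparison used, made up 42.3% of uniquely aligned reads in the Ctrl IP and 51.4% in the IR IP, above the 27.0% and 24.7% of the Input libraries that served as their controls.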

How the results depend on the processing

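With 3 pools per group, small changes of genes with few counts were not detectable, and TMM assumes that most genes do not differ between IP and Input. Of all genes tested, 34.1% were called higher and 34.6% lower in Ctrl, and 32.1% and 30.4% in IR, so most did differ. The zero point of the ratios is therefore uncertain, and the sign of a small ratio depends on it. Calls that held under each alternative numbered 35 of 39 for IP against Input in Ctrl, 23 of 32 in IR, 9 of 22 for the change of the ratio with IR, 24 of 34 for Input and 6 of 12 for the IP between conditions. Without a filter, 9 members were higher in the IR IP. Scaled by library size alone, 21 members had a higher and 3 a lower ratio in IR, and 17 were higher and 3 lower in the IR IP against the Ctrl IP. The median of the members per pool was then -0.57 in Ctrl and 0.11 in IR, and with DESeq2's size factors -0.38 and 0.061. Of the values that passed the threshold in either fit, those that changed sign with library size alone were Upf1 in Ctrl (-0.11), the change of the ratio of Btg1 (0.068), Ddx6 (0.022), Upf1 (0.28) and Tnrc6b (0.060), and Pabpc1 between the IPs (0.13). Values that passed in neither fit also changed sign, for 1 member in Ctrl, 4 in IR, 6 for the change of the ratio and 7 between the IPs. With at least 10 counts in every library, 17 members had a higher ratio in IR. With all 12 libraries in 1 fit, 13 members were lower in IR Input, and 10 were higher and 12 lower in the IR IP. Leaving out pools gave 7 to 13 members with a higher ratio in IR and 3 to 7 higher in the IR IP, with the lowest counts both without Ctrl pool 3. The cause was not tested. The replicate block left 12 members higher and 27 lower in Ctrl, 14 and 19 in IR, and 10 and 11 for the change of the ratio, and beyond the calls of Tob1 in IR and Tob2 in the change of the ratio it changed no other call of IP against Input. Between conditions a shared replicate number joins different pools of mice, whose deviations had correlations from 0.0012 to 0.024, and not every library correlated best with its own number. That block gave 7 higher and 7 lower between the IPs, with Cnot4 (-0.26) and Zfp36l2 (0.21) gained, and changed no call in Input.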
